A study of Mus musculus with 12 samples.

Results

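The Hox genes of the mouse are homeodomain transcription factors that lie in 4 clusters, Hoxa to Hoxd, on chromosomes 6, 11, 15 and 2 of the RefSeq annotation (GRCm38.p6). Every gene whose RefSeq symbol is Hoxa, Hoxb, Hoxc or Hoxd followed by digits only was taken, which gave 39 genes on the array, with 11 in Hoxa, 10 in Hoxb, 9 in Hoxc and 9 in Hoxd. They are measured by 44 probes, and 32 of them were among the 19507 genes or unnamed transcripts tested. Transcript levels came from 12 one-colour Agilent arrays of primary mouse embryonic fibroblasts (MEFs), cells grown from E12.5 embryos. The 4 groups, of 3 arrays each, were Itpr2 knock-out (KO) MEFs cultured for 5 passages (KO late), wild-type (WT) MEFs cultured for 5 passages (WT late), KO MEFs cultured for 3 passages (KO early) and WT MEFs cultured for 3 passages (WT early). The series describes 3 independent mice of each genotype, but not which allele or strain was used. Itpr2 encodes an IP3 receptor that lets calcium out of internal stores, and the design sets KO against WT cells and late against early passage. The liver samples that the series also describes were not analysed here. Nothing in the labels says which early and late cultures came from the same animal, and p-values measure only the spread between these arrays.

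Hox genes are numbered into paralog groups by their order in a cluster, and that order follows the place along the head-to-tail axis where each is switched on in the embryo. Low-numbered genes pattern the hindbrain and neck, middle ones the trunk, and high-numbered ones the tail end and the distal limb. Fibroblasts keep much of the Hox pattern of the body site they come from when they are cultured, so a culture made from many sites holds a mixture of patterns. Here paralog groups 1 to 3 are called anterior, 4 to 8 central and 9 to 13 posterior. In RNA from a whole culture, fewer cells of a type and less RNA per cell cannot be told apart.

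Between late and early passage, the Hox genes that passed were all central or posterior and all lower at late passage, and the largest such differences were those of Hoxa11 in both genotypes and Hoxb8 in KO. Promoter sequences are given for these genes and for Hoxb4, a gene of the same cluster as Hoxb8 that was not lower at late passage. They run from 250 bases before to 50 bases after the annotated start and come from RefSeq (GRCm38.p6), 5′ to 3′ on the strand of the gene. Capitals mark matches, on either strand, to TGATNNAT (a site shape bound by Pbx with Hox proteins), TAATNA (a homeodomain core) and TTTATNG (a shape preferred by posterior Hox proteins).
Hoxa11 promoter, chr6:52245761-52246060, - strand: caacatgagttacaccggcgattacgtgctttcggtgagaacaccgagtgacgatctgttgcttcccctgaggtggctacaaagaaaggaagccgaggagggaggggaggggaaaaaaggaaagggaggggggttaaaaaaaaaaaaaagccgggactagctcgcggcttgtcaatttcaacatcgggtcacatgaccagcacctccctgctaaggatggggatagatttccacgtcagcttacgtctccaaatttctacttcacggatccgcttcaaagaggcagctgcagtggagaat
Hoxb8 promoter, chr11:96281655-96281954, + strand: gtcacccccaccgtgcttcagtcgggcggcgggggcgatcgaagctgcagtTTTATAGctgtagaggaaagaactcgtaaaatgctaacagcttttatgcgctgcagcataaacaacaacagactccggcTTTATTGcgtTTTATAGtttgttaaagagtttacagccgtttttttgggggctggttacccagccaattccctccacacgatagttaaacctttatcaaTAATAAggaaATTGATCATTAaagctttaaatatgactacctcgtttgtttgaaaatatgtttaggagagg
Hoxb4 promoter, chr11:96318017-96318316, + strand: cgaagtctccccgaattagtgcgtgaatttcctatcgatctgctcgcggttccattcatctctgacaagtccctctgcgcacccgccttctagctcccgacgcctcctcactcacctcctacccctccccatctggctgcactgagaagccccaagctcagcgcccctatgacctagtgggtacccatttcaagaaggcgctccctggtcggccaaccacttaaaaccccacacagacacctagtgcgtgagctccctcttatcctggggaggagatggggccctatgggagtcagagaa
The Hoxb8 window holds 1 match to TGATNNAT, 2 to TAATNA and 3 to TTTATNG, and the TGATNNAT match overlaps a TAATNA match. The windows of Hoxa11 and Hoxb4 hold 0 matches to each motif. Of 32851 RefSeq promoter windows of this length, 8.8% hold TGATNNAT, 26.5% hold TAATNA and 10.9% hold TTTATNG. Of the 24 windows that belong to 22 Hox genes, 16.7%, 25% and 8.3% hold them in the same order. CG pairs number 15 in the Hoxa11 window, 13 in that of Hoxb8 and 14 in that of Hoxb4, against a median of 7 over all windows. A match describes letters only.

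All values below are log2 intensities relative to the 75th percentile of the same array, and differences are between group means on that scale. Levels of different genes are not compared, because each probe has its own brightness. Each array had 59.2% to 67.5% of its 39429 probes well above background, and replicates of a group correlated at 0.985 to 0.997 over all tested genes. All 14 fibroblast markers passed the filter on dim probes. The probe tested for Itpr2 did not separate the labels, with 1.75, 1.83 and 1.72 in KO late, 1.53, 1.74 and 1.56 in WT late, 1.12, 1.36 and 1.57 in KO early and 1.23, 0.96 and 0.66 in WT early arrays. The sources used here do not give its place relative to the deleted part, so KO stands for the label throughout. Ints13, a gene near Itpr2, did separate the labels at both passages, with 1.11 to 1.15 in KO late against 0.33 to 0.35 in WT late arrays and 1.03 to 1.11 in KO early against 0.20 to 0.29 in WT early arrays. Xist, the transcript of the inactive X chromosome, was above background on KO late replicates 1 and 2, WT late replicate 1 and WT early replicate 1, and on 0 of the 3 KO early arrays. KO late replicate 1 also held the Y-linked transcript Ddx3y at -0.14. KO late replicate 2 held Xist at -0.17 and Ddx3y below background, while the 3 KO early arrays held Ddx3y above background. These 2 KO late arrays thus differ in sex-linked transcripts from the KO early arrays. In KO, passage and a difference in source embryos therefore cannot be told apart. Hox calls of the KO passage comparison, and Hoxb8 in the other comparisons that use KO late, are given with and without these 2 arrays. Counts of genes that did not overlap, correlations with paralog group and values of uncalled Hox genes are given with them only. Slide number and replicate number are the same, and each slide holds 1 array of each group.

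Hox transcripts were broadly detected. In all, 28 of the 39 genes were above background on all 12 arrays, 8 on some of them and 3, Hoxb1, Hoxb13 and Hoxd1, on 0. A gene was tested when its probe stood well above background throughout 1 or more of the groups, a filter that 32 genes passed. These were 11 of 11 Hoxa, 8 of 10 Hoxb, 5 of 9 Hoxc and 8 of 9 Hoxd genes, or 6 of 8 anterior, 15 of 15 central and 11 of 16 posterior genes. The 4 other untested genes are Hoxc10 to Hoxc13. Hoxc11 was above background on 3 arrays, Hoxc12 on 6 and Hoxc13 on 7, and Hoxc10 was left out because its spot on WT early replicate 2 was called an outlier by the scanner software. Counts below therefore describe 32 tested genes and leave the distal end of Hoxc undescribed.

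**Figure D1:**
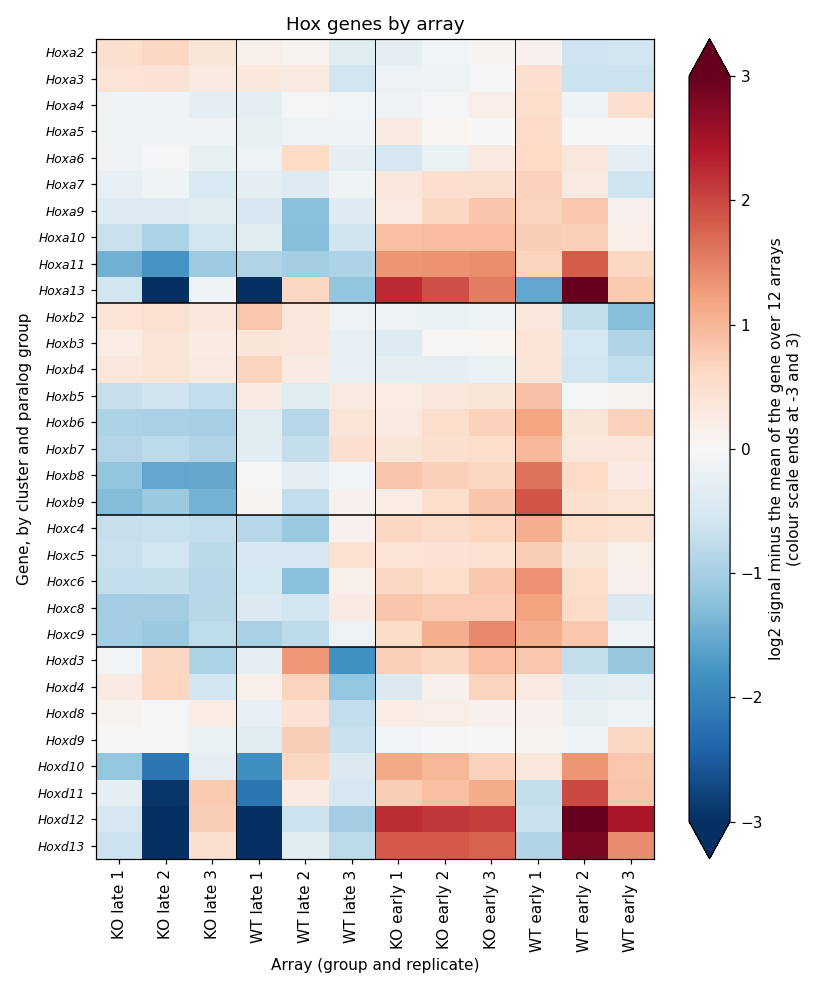
Each row is a tested Hox gene of paralog groups 2 to 13, ordered by cluster and paralog group, and each column is 1 of the 12 arrays. Colour is the log2 signal minus the mean of the gene over the 12 arrays; central and posterior genes are mostly red on early and blue on late arrays, and Hoxa13 and Hoxd10 to Hoxd13 differ widely between arrays of a group.

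Passage was compared first within the KO-labelled arrays, late against early. Of the 32 tested Hox genes, 14 fell at late passage (adjusted p under 0.05) and 0 rose, or 43.8%, against a background of 18.9% of all tested genes called in either direction, 9.95% higher and 9% lower. At an unadjusted p under 0.05, 19 Hox genes passed. The median log2 difference was -1.05, beside -0.0472 over all tested genes. KO late and KO early arrays did not overlap for 27 of the 32 genes, with 21 lower and 6 higher at late passage. Of all tested genes 51.9% did not overlap, 29.3% lower and 22.6% higher.

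The size of the difference in the KO arrays followed the order of the clusters. Of the 6 anterior genes, 0 were called, 5 had a positive difference and the median was 0.49. Among the 5 is Hoxb3, whose dimmer probe had -0.93. Of the 15 central genes, 8 fell and the median was -0.99. Of the 11 posterior genes, 6 fell and the median was -1.99. Hoxa13, Hoxd3, Hoxd11 and Hoxd12 were not above background on all 12 arrays and passed the filter through some groups only, so these counts and medians partly rest on dim values. Over the 28 genes above background on all 12 arrays, the medians were 0.51 for 5 anterior, -0.99 for 15 central and -1.90 for 8 posterior genes. Across the 32 genes, the late against early difference and the paralog group number had a Spearman correlation of -0.818, and over the 28 genes it was -0.79. This is a description over genes that share the same 6 arrays and lie in 4 clusters. By cluster, 3 of 11 Hoxa genes, 5 of 8 Hoxb genes, 5 of 5 tested Hoxc genes and 1 of 8 Hoxd genes fell.

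In the WT arrays, 6 of the 32 Hox genes fell at late passage and 0 rose, against a background of 10.6% of all tested genes called, 6.22% higher and 4.37% lower. At an unadjusted p under 0.05, 18 Hox genes passed, and the median log2 difference was -0.65 beside -0.00428 over all tested genes. Groups did not overlap for 8 genes, all lower at late passage, where 27.7% of all tested genes did not overlap and 13.8% did so lower. The 6 anterior genes had a median of 0.40 with 6 positive, although the dimmer probe of Hoxb3 had -0.92. The 15 central genes had -0.45 with 2 called, and the 11 posterior genes -1.37 with 4 called. Over the 28 genes above background on all 12 arrays the medians were 0.49, -0.45 and -1.27 in the same order. The Spearman correlation with paralog group was -0.853 over the 32 genes and -0.785 over the 28. All 6 genes that fell in WT were also among the 14 that fell in KO, which is 6 of 6 and 6 of 14. The 2 comparisons share no array, but both take the spread of a gene from all 12 arrays. With only the WT arrays in the fit, Hoxa9, Hoxa10, Hoxb6, Hoxc4 and Hoxc9 lost the WT call, with adjusted p of 0.0703 to 0.192.

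**Figure D2:**
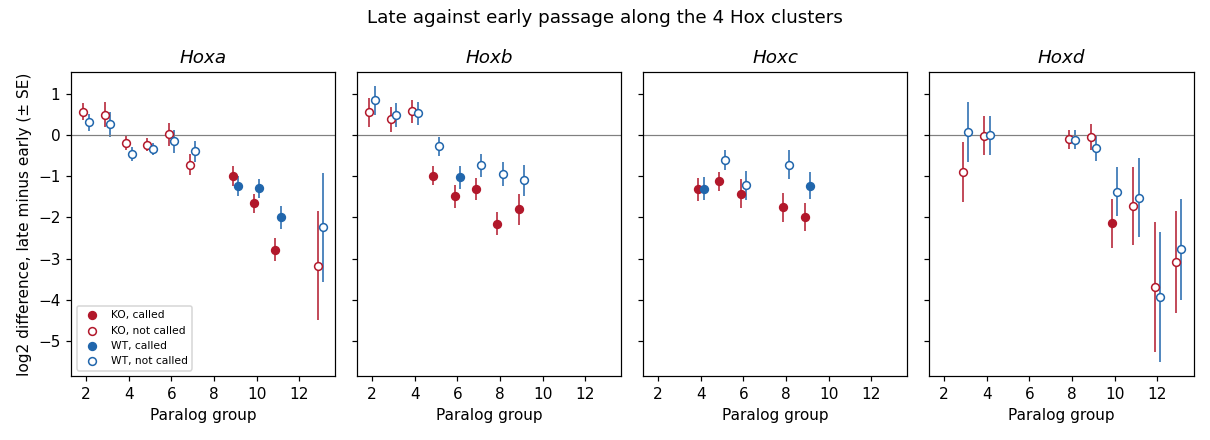
Late minus early log2 differences (y axis, bars are ± 1 SE of the fit) against paralog group (x axis) in each cluster, red for KO and blue for WT, filled where the adjusted p is under 0.05. Called genes all lie below 0, and in Hoxa the differences run from above 0 at groups 2 and 3 to below -1 from group 10 on. Paralog groups 2 to 13 are drawn.

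Markers of other cell types moved with some of these comparisons. Of 6 tested skeletal muscle markers, 4 fell at late passage in KO and 2 in WT, where 9% and 4.37% of all tested genes were lower. Of the same 6 markers, 3 were lower in KO late than in WT late, where 4.37% of all tested genes were lower. Tnnt2, a troponin of heart and embryonic muscle, had -2.49 there and was called in the difference between the passage responses, at -2.96 (adjusted p = 0.00606). The level summed over all 12 muscle markers, in units of the 75th percentile, was 7.87 to 9.29 in KO late, 10.5 to 15.9 in WT late, 8.13 to 11.8 in KO early and 9.28 to 15.6 in WT early arrays. Myod1, Myf5 and Myog, transcription factors of the skeletal muscle lineage, were above background on 0 of 12 arrays. Pax7, of the same list, was above background on 1 WT late and 1 WT early array. Of 14 tested cartilage markers, 7 were higher in KO late than in WT late, 3 rose with passage in KO and 4 fell with passage in WT. Of all tested genes 3.46%, 9.95% and 4.37% did so, in the same order. The sum over 16 cartilage markers was 53.5 to 67.1 in KO late, 43 to 51.9 in WT late, 46.0 to 60.9 in KO early and 40.8 to 98.9 in WT early arrays.

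All 12 macrophage markers had a negative difference between KO late and WT late. Of these 2, Cd68 and Lyz2, passed, where 4.37% of all tested genes were lower. Their sum was 24.9 to 52.8 in KO late, 60.8 to 109 in WT late, 40.3 to 51.0 in KO early and 31.6 to 85.0 in WT early arrays. Of 7 tested neural and glial markers, 3 were lower in KO late than in WT late, where 4.37% of all tested genes were lower. Among these, Nes was also called in the difference between the passage responses, at -2.08 (adjusted p = 0.0212). Sums over 12 neural and glial markers were 9.16 to 11.6 in KO late, 15.4 to 17.3 in WT late, 9.37 to 11.1 in KO early and 10.8 to 12 in WT early arrays. Pax6 and Gfap were above background on 0 arrays. Sums over 10 epithelial markers were 0.136 to 0.150 in KO late, 0.169 to 0.441 in WT late, 0.239 to 0.488 in KO early and 0.273 to 0.655 in WT early arrays. Of 4 tested epithelial markers 1 fell at late passage in KO, Krt18 at -2.67 (adjusted p = 0.0126), where 9% of all tested genes fell. Sums over 8 endothelial markers were 5.88 to 6.26 in KO late, 5.36 to 5.63 in WT late, 6.84 to 8.11 in KO early and 5.85 to 8.19 in WT early arrays. KO late and KO early sums did not overlap for either list. Cdh1 and Cdh5 were above background on 0 arrays. Fibroblast sums were 560 to 617 in KO late, 506 to 584 in WT late, 688 to 738 in KO early and 620 to 785 in WT early arrays. Late and early fibroblast sums did not overlap in either genotype. Of 14 tested fibroblast markers, 1 rose and 4 fell at late passage in KO, and 0 rose and 4 fell in WT. Of all tested genes 9.95% rose and 9% fell in KO, and 6.22% rose and 4.37% fell in WT. Between KO late and WT late, 4 fibroblast markers were higher and 2 lower, beside 3.46% and 4.37% of all tested genes. The part of all these cell types in the Hox differences was not tested.

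Hoxa9, Hoxa10 and Hoxa11 fell in both genotypes. Hoxa11 patterns the forearm and the uterus. Hoxa11 had -2.72, -3.04 and -2.35 in KO late arrays, -2.18, -2.30 and -2.20 in WT late arrays, 0.06, 0.07 and 0.12 in KO early arrays and -0.61, 0.54 and -0.64 in WT early arrays. All 6 late arrays lay below all 6 early arrays. The Hoxa11 difference, late against early, was -2.79 ± 0.281 (SE, adjusted p = 0.000426) in KO and -1.99 ± 0.281 (SE, adjusted p = 0.00366) in WT. Hoxa10, which patterns the upper limb bones, the lumbar spine and the uterus, behaved alike in direction. Hoxa10 had -2.31, -2.58 and -2.19 in KO late arrays, -1.96, -2.92 and -2.24 in WT late arrays, -0.73, -0.70 and -0.70 in KO early arrays and -0.90, -0.92 and -1.43 in WT early arrays. Again no late array reached an early one. The Hoxa10 difference, late against early, was -1.65 ± 0.23 (SE, adjusted p = 0.00183) in KO and -1.29 ± 0.23 (SE, adjusted p = 0.00941) in WT. Hoxa9, a gene of the posterior trunk and of blood progenitors, is measured by 2 probes that moved in the same direction. Hoxa9 had -4.49, -4.50 and -4.45 in KO late arrays, -4.58, -5.33 and -4.47 in WT late arrays, -3.78, -3.46 and -3.25 in KO early arrays and -3.42, -3.27 and -3.96 in WT early arrays. The Hoxa9 difference, late against early, was -0.98 ± 0.243 (SE, adjusted p = 0.0196) in KO and -1.24 ± 0.243 (SE, adjusted p = 0.0132) in WT. Late and early arrays did not overlap in either genotype. Under normexp background correction the differences of Hoxa9 were -0.59 in KO and -0.71 in WT, and both kept their calls.

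Hoxa13, the most distal gene of the cluster and a regulator of hand and foot formation, was not called. Hoxa13 had -5.73, -8.30 and -5.28 in KO late arrays, -8.93, -4.54 and -6.34 in WT late arrays, -2.92, -3.24 and -3.64 in KO early arrays and -6.73, -1.97 and -4.39 in WT early arrays. The Hoxa13 difference, late against early, was -3.17 ± 1.32 (SE, adjusted p = 0.121) in KO and -2.24 ± 1.32 (SE, adjusted p = 0.292) in WT. It was above background on 2 of 3 KO late, 2 of 3 WT late, 3 of 3 KO early and 2 of 3 WT early arrays, so the size of these differences is uncertain. Both of its probes had negative differences in both genotypes. Hoxa4 to Hoxa7, which pattern the neck and thorax, had differences between -0.71 and 0.03 in KO and between -0.45 and -0.15 in WT, and 0 of them were called.

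In Hoxb, the 5 genes from Hoxb5 to Hoxb9 fell in KO, while Hoxb2, Hoxb3 and Hoxb4 did not. These genes pattern the trunk, and Hoxb8 also acts in myeloid progenitors. Hoxb8 had -4.94, -5.29 and -5.29 in KO late arrays, -3.72, -4.05 and -3.82 in WT late arrays, -2.90, -3.02 and -3.13 in KO early arrays and -2.12, -3.14 and -3.50 in WT early arrays. KO late arrays were the lowest, WT late arrays came next, and the early groups overlapped. The Hoxb8 difference, late against early, was -2.15 ± 0.285 (SE, adjusted p = 0.00148) in KO and -0.94 ± 0.285 (SE, adjusted p = 0.0623) in WT. The KO difference of Hoxb8 was -0.99 under normexp background correction and kept its call. Hoxb9 had -2.46, -2.28 and -2.59 in KO late arrays, -1.09, -1.90 and -1.04 in WT late arrays, -0.93, -0.65 and -0.34 in KO early arrays and 0.71, -0.70 and -0.75 in WT early arrays. WT early replicate 1 stood above all other arrays for Hoxb9. The Hoxb9 difference, late against early, was -1.80 ± 0.372 (SE, adjusted p = 0.00957) in KO and -1.10 ± 0.372 (SE, adjusted p = 0.0889) in WT.

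Hoxb6 had -1.78, -1.81 and -1.83 in KO late arrays, -1.19, -1.69 and -0.45 in WT late arrays, -0.53, -0.29 and -0.14 in KO early arrays and 0.34, -0.46 and -0.14 in WT early arrays. The Hoxb6 difference, late against early, was -1.48 ± 0.284 (SE, adjusted p = 0.00696) in KO and -1.02 ± 0.284 (SE, adjusted p = 0.0466) in WT. Hoxb6 passed in WT although the WT groups overlapped, since WT late replicate 3 lay just above WT early replicate 2. Hoxb7 had -1.15, -1.06 and -1.18 in KO late arrays, -0.59, -0.99 and 0.23 in WT late arrays, 0.08, 0.20 and 0.26 in KO early arrays and 0.73, 0.06 and 0.07 in WT early arrays. The Hoxb7 difference, late against early, was -1.31 ± 0.275 (SE, adjusted p = 0.0101) in KO and -0.73 ± 0.275 (SE, adjusted p = 0.116) in WT. For Hoxb7, WT late replicate 3 lay within the range of the early arrays. Hoxb5 had -2.98, -2.90 and -3.04 in KO late arrays, -2.05, -2.66 and -2.02 in WT late arrays, -2.08, -1.95 and -1.94 in KO early arrays and -1.42, -2.33 and -2.20 in WT early arrays. The Hoxb5 difference, late against early, was -0.99 ± 0.232 (SE, adjusted p = 0.016) in KO and -0.26 ± 0.232 (SE, adjusted p = 0.488) in WT. KO late arrays were below all others for Hoxb5, and the WT late and WT early arrays overlapped.

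The 3 lowest-numbered tested Hoxb genes had positive differences without a call. Hoxb4, known as a regulator of blood stem cells, gives an example. Hoxb4 had 1.16, 1.2 and 1.09 in KO late arrays, 1.47, 1.07 and 0.58 in WT late arrays, 0.53, 0.56 and 0.62 in KO early arrays and 1.2, 0.24 and 0.07 in WT early arrays. KO late arrays lay above KO early arrays, and the WT groups overlapped. The Hoxb4 difference, late against early, was 0.58 ± 0.282 (SE, adjusted p = 0.175) in KO and 0.54 ± 0.282 (SE, adjusted p = 0.236) in WT. Hoxb2, a hindbrain gene, had differences of 0.56 in KO and 0.86 in WT, and neither passed. Hoxb3 is measured by 2 probes that disagree. The brighter one, which stands for the gene, had differences of 0.39 in KO and 0.49 in WT, and the other had -0.93 in KO and -0.92 in WT. When only KO late and KO early arrays entered the fit, whose replicates lie close together, Hoxa2, Hoxa3, Hoxb2 and Hoxb4 were called higher at late passage, with differences of 0.51 to 0.58 and adjusted p of 0.00316 to 0.0209.

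In Hoxc, the 5 tested genes all fell in KO, from Hoxc4, a gene of the neck and upper thorax, to Hoxc9, a gene of the lower thorax. Hoxc9 had -2.15, -2.26 and -1.90 in KO late arrays, -2.11, -1.92 and -1.32 in WT late arrays, -0.59, -0.06 and 0.30 in KO early arrays and -0.06, -0.32 and -1.28 in WT early arrays. KO late arrays were below all KO early arrays, and WT late replicate 3 was 0.0393 below WT early replicate 3. The Hoxc9 difference, late against early, was -1.99 ± 0.332 (SE, adjusted p = 0.00398) in KO and -1.23 ± 0.332 (SE, adjusted p = 0.043) in WT. With the slide as a block, the WT difference of Hoxc9 had an adjusted p of 0.0653. Hoxc8 had -3.90, -3.92 and -3.70 in KO late arrays, -3.31, -3.45 and -2.63 in WT late arrays, -2.04, -2.11 and -2.11 in KO early arrays and -1.66, -2.29 and -3.30 in WT early arrays. The Hoxc8 difference, late against early, was -1.76 ± 0.346 (SE, adjusted p = 0.00794) in KO and -0.71 ± 0.346 (SE, adjusted p = 0.206) in WT. WT late replicate 3 lay above WT early replicate 3 for Hoxc8, so the WT groups overlapped.

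Hoxc6 had 1.13, 1.15 and 1.02 in KO late arrays, 1.34, 0.62 and 2.02 in WT late arrays, 2.49, 2.40 and 2.67 in KO early arrays and 3.24, 2.40 and 2.00 in WT early arrays. The Hoxc6 difference, late against early, was -1.42 ± 0.351 (SE, adjusted p = 0.0197) in KO and -1.22 ± 0.351 (SE, adjusted p = 0.0529) in WT. Hoxc4 had -1.01, -1.0 and -1.06 in KO late arrays, -1.17, -1.45 and -0.19 in WT late arrays, 0.29, 0.25 and 0.33 in KO early arrays and 0.77, 0.21 and 0.12 in WT early arrays. The Hoxc4 difference, late against early, was -1.32 ± 0.278 (SE, adjusted p = 0.0103) in KO and -1.30 ± 0.278 (SE, adjusted p = 0.0179) in WT. For both genes the KO late arrays sat close together and apart from KO early. For Hoxc4, WT late replicate 3 lay nearest the early arrays. For Hoxc6 that array lay just above WT early replicate 3, so the WT groups overlapped. Hoxc5 had -2.48, -2.39 and -2.60 in KO late arrays, -2.29, -2.31 and -1.34 in WT late arrays, -1.40, -1.38 and -1.35 in KO early arrays and -1.06, -1.45 and -1.64 in WT early arrays. The Hoxc5 difference, late against early, was -1.12 ± 0.238 (SE, adjusted p = 0.0106) in KO and -0.60 ± 0.238 (SE, adjusted p = 0.133) in WT. The KO groups did not overlap for Hoxc5 and the WT groups did. Hoxc10, untested, had values of -5.58 to -5.34 in KO late, -7.53 to -3.80 in WT late and -4.0 to -2.88 in KO early arrays. On the 2 WT early arrays where its spot was not called an outlier it had -3.19 and -4.23.

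In Hoxd, only Hoxd10, which acts in the limb and in lumbar motor neurons, was called. Hoxd10 had -4.41, -5.43 and -3.52 in KO late arrays, -5.08, -2.64 and -3.70 in WT late arrays, -2.12, -2.26 and -2.56 in KO early arrays and -2.92, -1.94 and -2.45 in WT early arrays. KO late and KO early arrays did not overlap, and KO late arrays spread widely. The Hoxd10 difference, late against early, was -2.14 ± 0.599 (SE, adjusted p = 0.0327) in KO and -1.37 ± 0.599 (SE, adjusted p = 0.165) in WT. Hoxd3, Hoxd4, Hoxd8 and Hoxd9, from the 3′ and middle part of the cluster, had differences between -0.89 and -0.01 in KO and between -0.31 and 0.09 in WT, with 0 called.

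The distal Hoxd genes, which pattern the digits and the genital region, were not called, with arrays of a group far apart. Hoxd13 had -1.76, -4.74 and -0.64 in KO late arrays, -4.99, -1.47 and -1.90 in WT late arrays, 0.73, 0.72 and 0.65 in KO early arrays and -2.02, 1.70 and 0.30 in WT early arrays. Both genotypes had lower means at late passage, and KO late replicate 2 and WT late replicate 1 were far below their groups. The Hoxd13 difference, late against early, was -3.08 ± 1.24 (SE, adjusted p = 0.109) in KO and -2.78 ± 1.24 (SE, adjusted p = 0.172) in WT. Hoxd12 had -3.89, -8.27 and -2.63 in KO late arrays, -8.49, -4.04 and -4.41 in WT late arrays, -1.17, -1.25 and -1.30 in KO early arrays and -4.06, -0.12 and -0.94 in WT early arrays. The Hoxd12 difference, late against early, was -3.69 ± 1.58 (SE, adjusted p = 0.131) in KO and -3.94 ± 1.58 (SE, adjusted p = 0.136) in WT. Hoxd12 was above background on 2 of 3 KO late and 2 of 3 WT late arrays, so these sizes are uncertain, and under normexp its WT difference was -1.94 (adjusted p = 0.0406). Within slides, late minus early was negative on all 3 slides in both genotypes for Hoxd12, at -2.72, -7.02 and -1.34 in KO and -4.44, -3.92 and -3.47 in WT. The arrays lowest for Hoxd11, Hoxd12 and Hoxd13 within the KO late, WT late and WT early groups were KO late replicate 2, WT late replicate 1 and WT early replicate 1. Each of these held Xist above background and Ddx3y below it, while KO late replicate 1 held both. The part of this in the result was not tested. With the level of Xist as a covariate, Hoxd12 and Hoxd13 passed in WT, at -3.81 (adjusted p = 0.0209) and -2.68 (adjusted p = 0.0283). Hoxd11, whose 2 probes had negative differences in both genotypes, had -1.72 in KO and -1.52 in WT.

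**Figure D3:**
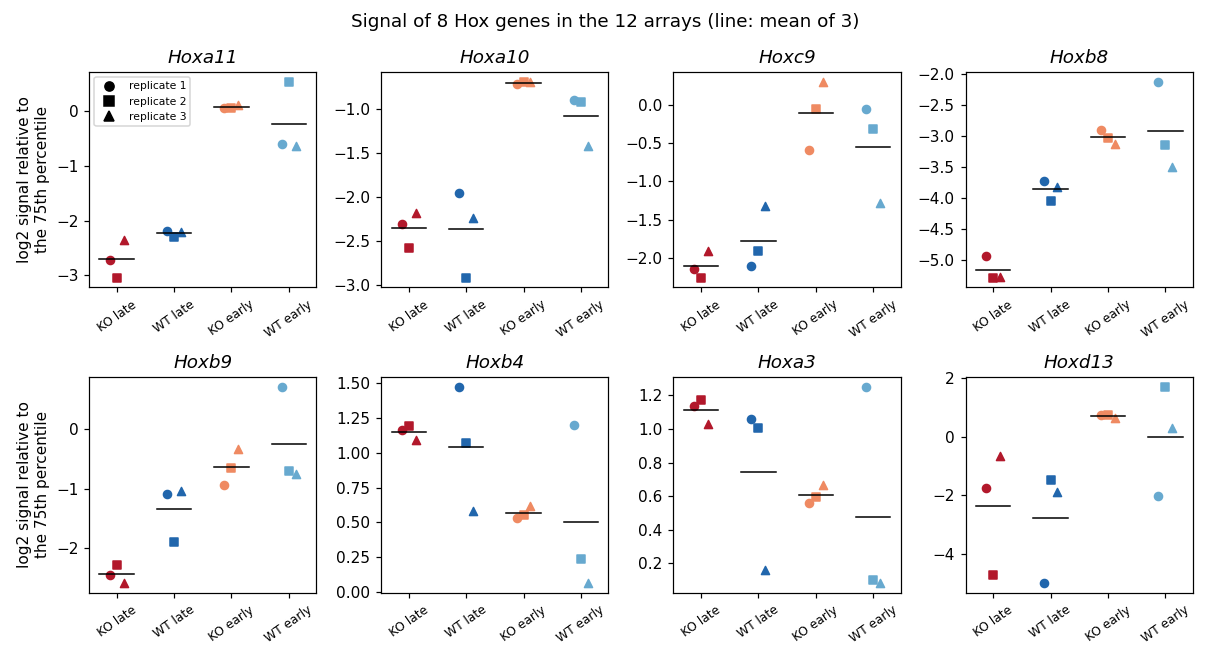
Each point is the log2 signal of a gene on 1 array relative to the 75th percentile of that array, with the replicate given by the marker and the mean of 3 arrays by the line. Late groups lie below early groups for Hoxa11 and Hoxa10 without overlap, KO late is lowest for Hoxb8, and Hoxd13 spreads over several log2 units within KO late, WT late and WT early.

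Hoxa2 and Hoxa3 were not called in either genotype. Hoxa2 patterns the hindbrain and the second branchial arch, and Hoxa3 the thymus and parathyroid. Hoxa3 had 1.14, 1.18 and 1.03 in KO late arrays, 1.06, 1.01 and 0.16 in WT late arrays, 0.56, 0.59 and 0.67 in KO early arrays and 1.25, 0.10 and 0.08 in WT early arrays. KO late arrays were above KO early arrays, and the WT groups overlapped. The Hoxa3 difference, late against early, was 0.51 ± 0.311 (SE, adjusted p = 0.279) in KO and 0.27 ± 0.311 (SE, adjusted p = 0.611) in WT. Hoxa2 had differences of 0.58 in KO and 0.32 in WT. With the slide as a block, Hoxb8 passed in WT with an adjusted p of 0.0322, and the WT count was 7.

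Leaving out 1 array at a time left 10 to 12 of the 14 passage calls in KO. Hoxa9, Hoxb5, Hoxc6 and Hoxd10 were the genes that lost theirs, with adjusted p between 0.0501 and 0.118. Hoxa9 was lost without any array of the 6 other than KO early replicate 1, and Hoxd10 without any other than KO late replicate 3. Hoxc6 was lost without any other than KO early replicate 3. Hoxb5 was lost without KO early replicate 2, KO late replicate 1 or KO late replicate 3. Without KO late replicates 1 and 2 together, the remaining KO late array gave 1 call, Hoxa11, at -2.44 (adjusted p = 0.0415). The other 13 genes had adjusted p of 0.0616 to 0.501 in that fit, and their differences ran from -2.27 for Hoxb8 to -0.95 for Hoxa9, with Hoxd10 at -1.20 against -2.14 with all arrays. With Xist as a covariate Hoxd10 had -1.37 (adjusted p = 0.0587). Under normexp, Hoxc8 had -1.08 and Hoxd10 -1.14, and both kept their calls.

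In WT, leaving out 1 array gave 3 to 9 calls. Without WT late replicate 1 or WT late replicate 2, 3 genes were called, and Hoxb6, Hoxc4 and Hoxc9 were lost with adjusted p of 0.0512 to 0.123. Without WT late replicate 3 or WT early replicate 3, 9 were called, all lower. Without WT early replicate 1, 8 were called. Of these 4 were lower and 4 were higher, among them Hoxb2 at 1.31, Hoxb3 at 0.87 and Hoxb4 at 0.89. Without WT early replicate 2, 6 were called, with Hoxc9 lost (adjusted p = 0.113) and Hoxa4 gained at -0.66.

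KO was then compared with WT at late passage. Of the 32 Hox genes, 1, Hoxb8, was lower in KO late than in WT late arrays and 0 were higher, against a background of 7.83% of all tested genes called, 3.46% higher and 4.37% lower. At an unadjusted p under 0.05, 6 Hox genes passed, and the median log2 difference was -0.00258 beside -0.00814 over all tested genes. The groups did not overlap for 9 Hox genes, 8 lower and 1 higher, where 39.3% of all tested genes did not overlap, 20.3% lower and 19% higher. The difference of Hoxb8 was -1.31 ± 0.285 (SE, adjusted p = 0.0242). Within slides it was -1.22, -1.25 and -1.47. Its call was lost when any array other than WT late replicate 2 was left out, with adjusted p of 0.0612 to 0.0824. Normexp background correction gave -0.39 (adjusted p = 0.134), no filter on dim probes gave an adjusted p of 0.0599, and without KO late replicates 1 and 2 it was -1.43 (adjusted p = 0.271).

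Hoxb was the cluster with the lowest median in that comparison, at -0.69. Of all tested genes 39.3% did not overlap there, 20.3% lower in KO late. Of the 8 tested Hoxb genes 5 did not overlap, all lower in KO late. Besides Hoxb8 these were Hoxb9 at -1.10 ± 0.372 (SE, adjusted p = 0.0974), Hoxb5 at -0.73 ± 0.232 (SE, adjusted p = 0.0808), Hoxb6 at -0.69 ± 0.284 (SE, adjusted p = 0.161) and Hoxb7 at -0.68 ± 0.275 (SE, adjusted p = 0.153). The medians were 0.01 in Hoxa, -0.32 in Hoxc and 0.17 in Hoxd. For Hoxb the median stayed between -0.95 and -0.35 in 17 other settings, while for Hoxd it ran from -0.39 to 0.60. Hoxa2 was the 1 gene whose KO late arrays all lay above WT late, at 0.52 ± 0.207 (SE, adjusted p = 0.152). By region, the medians were 0.13 for anterior, -0.18 for central and 0.01 for posterior genes.

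At early passage, 0 Hox genes were called between KO and WT by limma, and 0 passed an unadjusted p under 0.05. Over all tested genes 0.0359% were called in this comparison, 0.0256% higher and 0.0103% lower, and 9.54% did not overlap, 5.24% higher and 4.29% lower. The KO early and WT early arrays did not overlap for 2 Hox genes, Hoxa10 at 0.37 ± 0.23 (SE, adjusted p = 0.741) and Hoxd8 at 0.26 ± 0.237 (SE, adjusted p = 0.783), both higher in KO early. The lowest difference was -0.40, for Hoxb9. Hoxd3 and Hoxa13 were above background on 1 and 2 of the 3 WT early arrays, so their sizes are not given. The 32 genes had a median of 0.14 beside 0.0171 over all tested genes. The spread was unequal. The median SD of a tested Hox gene was 0.114 in KO late, 0.49 in WT late, 0.118 in KO early and 0.605 in WT early arrays, beside 0.0839, 0.16, 0.141 and 0.214 for all tested genes in the same order. The highest SD was 2.96 for Hoxd12 in KO late and 0.548 for Hoxd4 in KO early arrays.

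**Figure D4:**
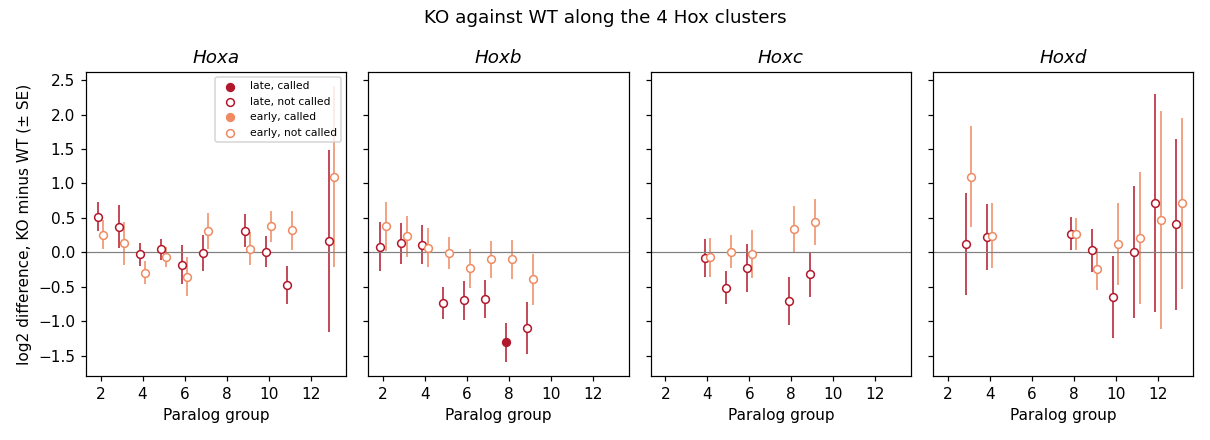
KO minus WT log2 differences (y axis, bars are ± 1 SE of the fit) against paralog group (x axis) in each cluster, dark red for late and orange for early passage, filled where the adjusted p is under 0.05. Paralog groups 2 to 13 are drawn. Hoxb8 at late passage is the 1 filled point, and Hoxb5 to Hoxb9 lie below 0 there.

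The difference between the KO and the WT passage response was tested directly. Limma called 0 of 32 Hox genes, 1 passed an unadjusted p under 0.05, and 0.0871% of all tested genes were called, 0.0205% with a higher and 0.0666% with a lower difference. The lowest adjusted p was 0.259, for Hoxb8, whose late against early difference was -1.21 ± 0.403 (SE) in KO minus WT. The median was -0.30, and by cluster it was 0.11 in Hoxa, -0.52 in Hoxb, -0.52 in Hoxc and -0.11 in Hoxd. Without WT early replicate 1, Hoxb8 was called at -1.61 (adjusted p = 0.0369). Without KO late replicates 1 and 2 together, the Hoxb8 value was -1.32, from the 1 KO late array that remained. With all arrays in the fit, no Hox gene was shown to respond differently in KO and WT. The KO late arrays enter both the KO passage comparison and the late KO against WT comparison.

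Transcripts in or beside the clusters were listed from the RefSeq order, and 18 of 23 on the array were tested. Values of genes other than the Hox genes are given with all 12 arrays only. Late against early, 2 rose and 5 fell in KO, where 18.9% of all tested genes were called, 9.95% higher and 9% lower. The antisense transcript Hoxa11os fell in KO, at -2.68 ± 0.62 (SE, adjusted p = 0.0149), and Hoxb5os fell in both KO, at -1.61, and WT, at -1.47. Hoxaas2, which lies between Hoxa2 and Hoxa3, rose in KO by 1.12. Gm53, which lies between Hoxb13 and Hoxb9, fell in KO by 2.24 on the log2 scale. In WT, where 6.22% of all tested genes rose and 4.37% fell, 1 rose and 3 fell. Skap1, beyond Hoxb1, had 1.11 there and Haglr, within Hoxd, had -1.10.

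Between KO late and WT late arrays, 2 of these 18 transcripts were lower and 0 higher. Of all tested genes 4.37% were lower and 3.46% higher. Gm53 had -6.82, -7.16 and -6.18 in KO late arrays and -4.89, -4.73 and -4.44 in WT late arrays, a difference of -2.03 ± 0.256 (SE, adjusted p = 0.00318). It was above background on 1 of the 3 KO late arrays, so the size is uncertain. Skap1 had -3.07, -3.33 and -2.80 in KO late arrays and -1.80, -1.79 and -1.58 in WT late arrays, a difference of -1.34 ± 0.261 (SE, adjusted p = 0.0168). Skap1 encodes an adaptor protein of T cells. Both flank the Hoxb cluster or lie inside it, and their groups did not overlap.

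Pbx, Meis and Pknox proteins bind DNA together with Hox proteins. All 9 of these cofactor genes were tested. Late against early, 0 rose and 2 fell in KO, Pbx2 at -0.45 and Pbx3 at -0.46. Of all tested genes 9.95% rose and 9% fell. In WT, where 6.22% rose and 4.37% fell, 0 cofactors rose and 4 fell, Pknox2 at -1.07, Meis3 at -0.85, Pbx3 at -0.64 and Pbx2 at -0.64. KO late arrays were higher than WT late arrays for Meis3. Meis3 had 1.43, 1.56 and 1.21 in KO late arrays and 0.51, 0.57 and 0.49 in WT late arrays, a difference of 0.87 ± 0.168 (SE, adjusted p = 0.016). Meis2 was higher as well, at 0.71 ± 0.184 (SE, adjusted p = 0.0435). The cofactor median was 0.34 in KO late against WT late, -0.17 for passage in KO and -0.40 for passage in WT.

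Retinoic acid, Cdx factors and Gdf11 signalling set Hox expression in the embryo. Of 19 tested genes of these inputs, 3 rose and 6 fell at late passage in KO, and 2 rose and 3 fell in WT. Of all tested genes 18.9% were called in KO and 10.6% in WT. Crabp1 and Crabp2, which bind retinoic acid in the cytoplasm, had KO differences of -4.13 ± 0.962 (SE, adjusted p = 0.0154) and -2.77 ± 0.527 (SE, adjusted p = 0.00677). Aldh1a2 and Aldh1a3, which make retinoic acid, had KO differences of -3.85 and -3.65. They were above background on 1 and 2 of the 3 KO late arrays, so those sizes are uncertain. In WT, Crabp2 fell by 1.89 and Aldh1a3 by 1.62 on the log2 scale, and Egr2, a hindbrain regulator upstream of Hoxa2 and Hoxb2, rose by 2.25. In KO, Egr2 rose by 2.77. KO late arrays were lower than WT late arrays for Aldh1a3, at -2.20 ± 0.415 (SE, adjusted p = 0.015), and for Aldh1a2, at -1.92 ± 0.497 (SE, adjusted p = 0.044). These were the 2 of 19 called, where 7.83% of all tested genes were called. Medians were -0.29 for KO late against WT late, -0.30 for passage in KO and -0.11 for passage in WT.

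Polycomb and trithorax proteins keep Hox genes silent or active. Of 36 tested genes, 3 rose and 0 fell at late passage in KO, Pcgf6 at 0.44, Ezh1 at 0.37 and Bmi1 at 0.28. The share called was below the 18.9% of all tested genes. In WT, where 10.6% of all tested genes were called, 0 rose and 2 fell, Cbx6 at -0.66 and Pcgf2 at -0.57. Between KO late and WT late arrays 2 were higher, Cbx6 at 0.51 and Phc1 at 0.50, where 3.46% of all tested genes were higher. There 1 was lower, Pcgf5 at -0.83, beside 4.37% of all tested genes. These 8 differences were all under 1 log2 unit.

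Other genes that mark body position were read beside the Hox genes. Of 20 tested limb genes, 1 rose and 6 fell at late passage in KO, with a median of -1.09, where 9.95% of all tested genes rose and 9% fell. In WT 1 rose and 2 fell, with a median of -0.59, where 6.22% rose and 4.37% fell. Hand2, which acts in the posterior limb bud and the heart, gave the largest called difference. Hand2 had -4.30, -4.48 and -4.06 in KO late arrays, -4.51, -3.84 and -3.28 in WT late arrays, -1.59, -1.60 and -1.68 in KO early arrays and -2.98, -1.39 and -2.17 in WT early arrays. Its KO difference was -2.66 ± 0.376 (SE, adjusted p = 0.00196) and its WT difference -1.70 ± 0.376 (SE, adjusted p = 0.0211). In KO, the limb bud transcription factor Tbx2 fell by 1.51, Prrx1, a regulator of limb mesenchyme, by 1.50 and Lhx9 by 1.03 on the log2 scale, and in WT Prrx1 fell by 1.02 while Fgf10, a limb bud growth factor, rose by 0.90. Between KO late and WT late 1 of the 20 was called, Msx2 at -1.11, where 7.83% of all tested genes were called.

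Of 20 tested head and neural crest genes, which mark regions with little or no Hox expression, 2 rose and 3 fell at late passage in KO, with a median of -0.35. The shares called in KO and in WT lay near those of all tested genes, 18.9% and 10.6%. Those named here act in the face and jaws. Lhx8 had -4.04, Alx1 -3.58, Dlx5 -1.82 and Pax9 1.50. For Alx1, 2 of 3 KO late arrays were above background. In WT 0 rose and 2 fell, Dlx5 at -1.84 and Six2 at -1.47, with a median of -0.44. Between KO late and WT late 1 was called, Pax9 at 0.83, where 7.83% of all tested genes were called. Between KO early and WT early, limma called 0 genes of the cofactor, retinoid, Polycomb, limb, head and cluster lists, whose lowest adjusted p was 0.741.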

How the data were processed

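Total RNA, 100 ng per array, was labelled with Cy3 and measured on 12 one-colour arrays. The deposited scanner files hold spot intensity that, per the file headers, Agilent Feature Extraction 11.5.1.1 had corrected for background, with no scaling between arrays. The submitters' processing notes give version 10.7.3.1. The authors' deposited value table holds log2 values of 22887 probes, centred per probe. Its columns have medians of -0.0428 to 0.0232 and correlate at 1 with the scanner values centred the same way. Its probe filter is not known here, and it served as an alternative.

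Outlier spots were left out, repeated spots averaged, log2 taken and the 75th percentile of each array subtracted. A probe was kept if every one of the 3 arrays of some group had it well above background (24466 probes, after 107 with an outlier spot were dropped), and the brightest kept probe stood for a gene. Of 28290 probes with a RefSeq transcript accession, 27969 matched a symbol of the RefSeq table (GRCm38.p6). Limma 3.58.1 in R 4.3.3 fitted 4 group means to 12 arrays (8 residual and 2.22 prior degrees of freedom), and two-sided p-values of 5 contrasts were adjusted over 19507 genes by Benjamini-Hochberg, with calls at an adjusted p under 0.05. The groups share 1 spread per gene, and 3 arrays a group limit the precision. An exact permutation of 3 against 3 arrays cannot give a two-sided p below 0.1. The fit was also run on simulated data in which a gene had the same spread in all groups. Such data cannot check the fit for the unequal spread of the Hox genes seen here.

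Same-numbered WT late and WT early arrays deviated together over all genes (correlations 0.141 to 0.279). Differently numbered WT late and WT early arrays had -0.211 to -0.00359. KO late replicate 2 and WT early replicate 1, of different genotypes, had 0.207, and both held Xist above background and Ddx3y below it. In WT, replicate 1 held Xist above background at both passages, and replicates 2 and 3 did not. Whether the numbers pair WT cultures was not tested. The labels state no pairing, so the main fit took the arrays as unpaired, with the slide block as an alternative. Same-numbered KO late and KO early arrays had -0.0915 to 0.0791. Arrays of the same number share the slide. Alternatives changed scaling, background correction, filter, probe choice, slide block, the arrays in the fit, and Xist as a covariate. Normexp used the median spot signal, since the files hold no mean signal, with local backgrounds that the scanner software marked as outliers set to the median of the array.

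Per-array values are given for Hox genes called in at least 1 comparison and for examples of others chosen after their values were seen (Hoxa3, Hoxa13, Hoxb4, Hoxd12 and Hoxd13); of each other list, up to 4 called genes per comparison are named. Some Hox values are not reported here. The Hox genes and all lists were chosen with earlier results of these data known.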

Additional observations from a re-analysis of the deposited data

How the results depend on the processing

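Across 17 settings for KO and 16 for WT, the 21 Hox calls gave 351 values, of which 289 kept the call, 62 lost it and 0 changed sign. The fall of Hoxa11 kept its call in all of them in both genotypes, with adjusted p up to 0.0415 in KO and 0.0384 in WT. In KO the anterior median stayed between 0.17 and 0.52 and the posterior one between -2.52 and -1.33. In WT the anterior median stayed between 0.21 and 0.78 and the posterior one between -1.95 and -0.98.

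For KO late against WT late, the count of 1 was 0 under normexp, with no filter on dim probes and without KO late replicates 1 and 2 together. It was 2 with only those groups in the fit (Hoxb9 added) and 2 with the Xist covariate (Hoxb5 added), and 0 to 2 leaving out 1 array. For passage in KO, the count of 14 was 1 without KO late replicates 1 and 2, 20 with only the KO arrays in the fit, and 10 to 12 leaving out 1 array. For passage in WT, the count of 6 was 10 under normexp, 1 with only the WT arrays in the fit, 4 with no filter on dim probes, and 3 to 9 leaving out 1 array. For the difference between responses, the count of 0 was 0 to 1 leaving out 1 array. KO early against WT early had 0 calls in all settings.

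The replicate block left 1, 0, 14 and 0 calls for KO late against WT late, KO early against WT early, passage in KO, and for the contrast of the responses, as without it. In WT it gave 7, with Hoxb8 among those added and Hoxc9 lost. Same-numbered KO and WT arrays deviated by correlations of -0.0534 to 0.0892 at late and 0.0557 to 0.156 at early passage. Scaling to the median moved the median of all genes to -0.142 for passage in WT, and dropping the filter moved it to -0.153 for passage in KO. The cause of these changes was not tested, except that the fits with fewer arrays have fewer degrees of freedom. Dim probes near background limit Hoxa13, Hoxd3, Hoxd11 and Hoxd12.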
